A study of Mus musculus with 4 samples.

Results

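TOP2B peaks were mapped at the replication-dependent histone genes of mouse thymocytes. The members were the 67 protein-coding genes, of 22367 on the assembled chromosomes of the GENCODE M1 annotation (build mm9), whose names begin with Hist1h, Hist2h, Hist3h or Hist4h. A peak belonged to them if its centre lay inside such a gene or within 10 kb of it. By this rule 5 of 3564 Novus peaks and 18 of 17754 Santa Cruz peaks were members' peaks.

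Topoisomerase IIβ (TOP2B) was immunoprecipitated from thymocytes of wild-type C57BL/6 mice, 4 to 6 weeks old, with antibodies from Santa Cruz or Novus Biologicals. The labels name no treatment and no sort by stage or cell cycle phase. There was 1 library per antibody, so there is no replicate error, and the intervals given below cover counting error only. The lists hold positions without heights or read numbers, so depth per peak is unknown, and the labelled cell type could not be checked against markers. The IgG and TOP2A libraries were not analysed here.

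Replication-dependent histone genes encode the H1 linker histone and the H2A, H2B, H3 and H4 core histones that package new DNA in S phase. They are short, mostly without introns, and end in a stem-loop in place of a poly(A) tail. Many H2A and H2B genes are arranged head to head and share the stretch between them. TOP2B relieves torsional stress by passing a DNA duplex through a transient break in another, and is known to sit at promoters and at CTCF and cohesin sites.

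The members formed a large Hist1 cluster on chromosome 13 with 54 genes, chr13:21807632-24026720, a Hist2 cluster of 9 genes, chr3:96023839-96082924, and a Hist3 pair, Hist3h2ba and Hist3h2a, on chromosome 11. Hist4h4 on chromosome 6 and Hist1h2al on chromosome 13 stood alone. The Hist1 genes were 6 H1, 13 H2A, 15 H2B, 9 H3 and 11 H4 genes. With 10 kb on each side they made 7 windows of 380.1 kb in all, separated by 6 gaps of 1859 kb in all.

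A few peaks are shown as sequence because they carry the main types of site found: both places called with both antibodies, an intronic CTCF match, and 3 peaks at promoters. All are read on the forward strand of mm9, and capitals mark matches on either strand. For Hist1h4j, Hist1h4c and Hist1h2be the capitals are the CTCF core consensus with up to 1 mismatch. For the Hist1h2ak and Hist1h2bn pair and for Hist3h2ba they are CCAAT, or ATTGG where the match is on the other strand, and for Hist1h1d they are CCAAT and TATAAA, where TTTATA is TATAAA on the other strand. The Santa Cruz peaks lay at chr13:21826044-21826230 (Hist1h4j), chr13:23793144-23793330 (Hist1h4c), chr13:23689954-23690140 (Hist1h2be), chr13:21845762-21845948 (Hist1h2ak and Hist1h2bn), chr11:58762120-58762306 (Hist3h2ba) and chr13:23646734-23646920 (Hist1h1d).
Hist1h4j: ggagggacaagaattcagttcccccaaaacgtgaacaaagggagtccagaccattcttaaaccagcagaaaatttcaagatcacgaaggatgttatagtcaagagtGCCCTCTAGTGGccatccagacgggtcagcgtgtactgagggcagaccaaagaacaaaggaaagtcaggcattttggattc
Hist1h4c: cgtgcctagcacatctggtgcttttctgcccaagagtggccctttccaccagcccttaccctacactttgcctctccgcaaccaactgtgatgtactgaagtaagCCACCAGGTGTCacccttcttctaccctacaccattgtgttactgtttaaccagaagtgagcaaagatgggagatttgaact
Hist1h2be: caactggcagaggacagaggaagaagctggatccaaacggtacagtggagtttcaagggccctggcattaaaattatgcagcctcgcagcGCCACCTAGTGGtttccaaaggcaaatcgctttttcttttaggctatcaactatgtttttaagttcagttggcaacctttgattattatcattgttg
Hist1h2ak and Hist1h2bn: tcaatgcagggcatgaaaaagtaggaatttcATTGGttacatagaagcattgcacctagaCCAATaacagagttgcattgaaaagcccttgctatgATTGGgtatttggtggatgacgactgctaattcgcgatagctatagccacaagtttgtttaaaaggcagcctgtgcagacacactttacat
Hist3h2ba: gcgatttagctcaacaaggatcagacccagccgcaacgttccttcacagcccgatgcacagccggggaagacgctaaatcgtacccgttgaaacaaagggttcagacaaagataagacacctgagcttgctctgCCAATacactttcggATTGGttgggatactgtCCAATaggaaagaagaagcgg
Hist1h1d: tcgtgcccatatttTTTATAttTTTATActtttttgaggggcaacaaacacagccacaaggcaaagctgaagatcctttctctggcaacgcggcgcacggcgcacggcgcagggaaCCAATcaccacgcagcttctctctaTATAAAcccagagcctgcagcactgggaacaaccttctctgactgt

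The density of TOP2B peaks around histone genes was above that of the genome in both lists. The windows held 34.1 Santa Cruz peaks per Mb (95% exact Poisson interval 20.2 to 53.9), against 6.69 over the whole genome. For Novus it was 9.48 per Mb (3.08 to 22.1), against 1.34. The genome average also covers sequence far from genes, so it does not set histone genes apart from other genes. Santa Cruz peaks were found in 8 of 11 windows and Novus peaks in 3.

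**Figure D1:**
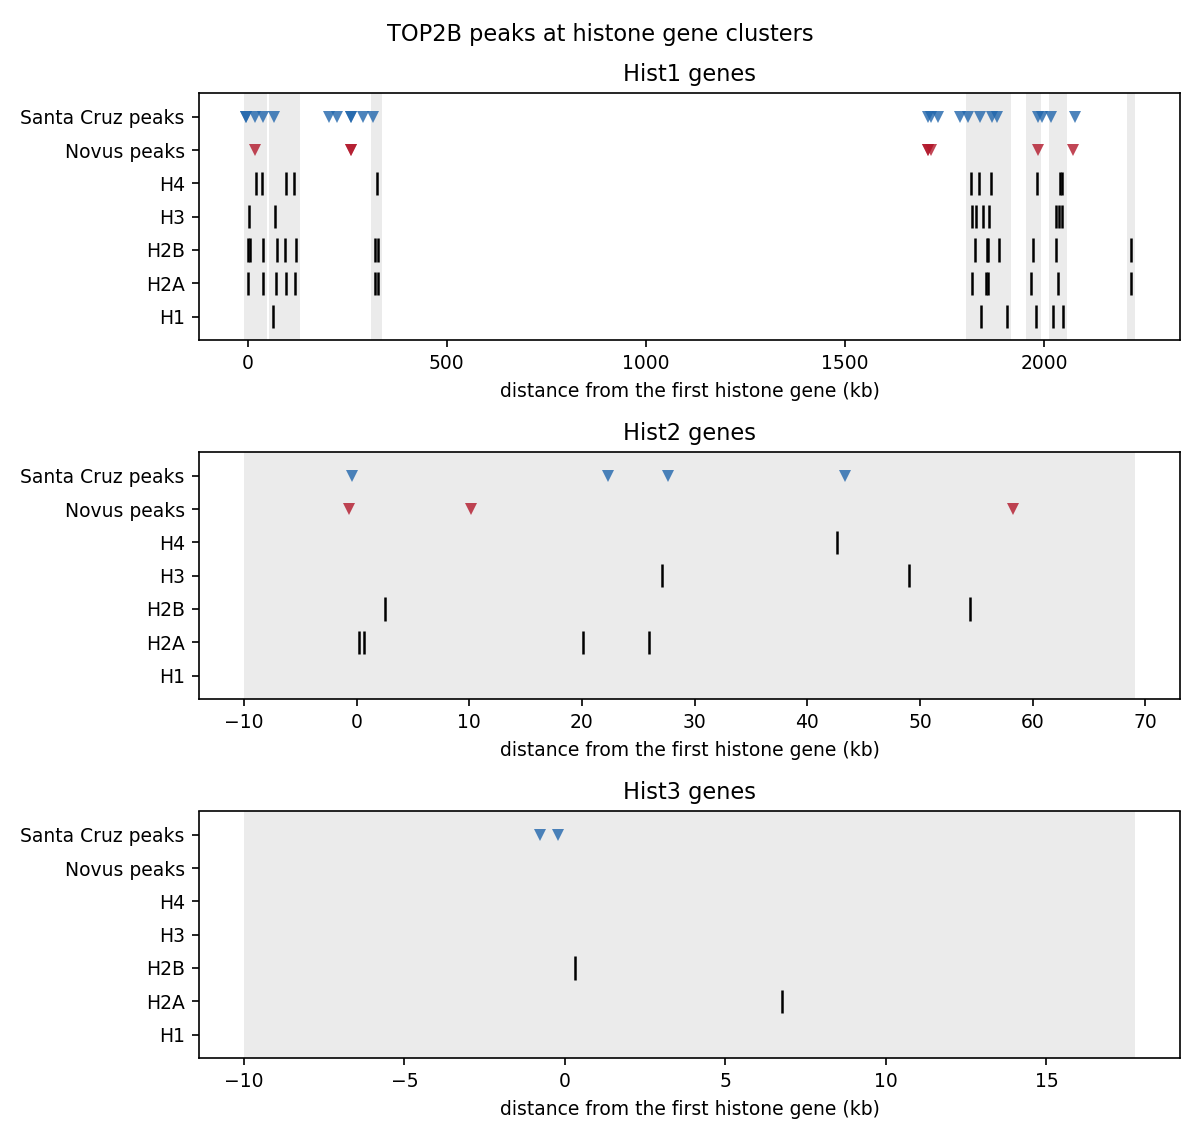
Histone genes and TOP2B peaks along the Hist1, Hist2 and Hist3 clusters, with distance from the first histone gene in kb on the x axis. Black ticks are genes, placed by histone class, triangles are peak centres of the Novus (red) and Santa Cruz (blue) lists, and grey marks the windows of 10 kb around genes. The Hist1 panel shows a long stretch without peaks between the histone genes at either end of the cluster.

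To compare the count with that of displaced peaks of the same spacing, the peaks of each chromosome were shifted together along it by a random offset, 100000 times. The 5 Novus peaks compared with a mean of 0.79 after the shifts, a 6.33-fold excess (one-sided permutation test, p = 0.00564, adjusted p over both lists 0.00564). The 18 Santa Cruz peaks compared with a mean of 3.74, a 4.82-fold excess (one-sided permutation test, p = 0.00031, adjusted p = 0.00062). Shifted peaks can also land far from any gene, and peak density around other genes was not measured. Neither excess therefore sets histone genes apart from other genes. For the Hist1 cluster alone the Novus list held 2 peaks against 0.564, a 3.55-fold excess that did not pass the threshold (one-sided permutation test, adjusted p = 0.139), while outside it the 3 Novus peaks were 13.3-fold above the shifted mean (adjusted p = 0.00509, one-sided permutation test). All 3 lay in the single Hist2 window of 79.1 kb. The 1 Mb on each side of Hist2 held 5.5 Novus peaks per Mb, compared with 1.32 over chromosome 3. When every peak was moved on its own by only 10 kb to 1 Mb, the excess was 2.51-fold for Novus (adjusted p = 0.0445, permutation test) and 2.98-fold for Santa Cruz (adjusted p = 6e-05, permutation test). Such separate moves do not keep the spacing of the peaks, so these p-values do not allow for peaks that lie close together.

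**Figure D2:**
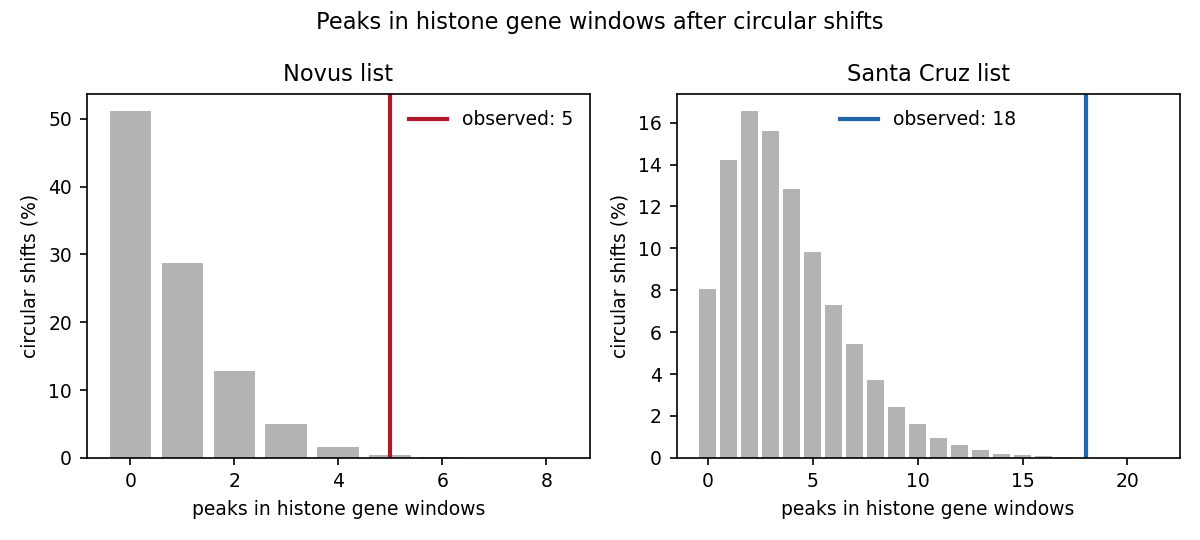
Number of peaks in the histone gene windows (x axis) over 100000 circular shifts, as a percentage of shifts (y axis), with a vertical line at the observed number. The observed 5 Novus and 18 Santa Cruz peaks lie in the upper tails, whose highest counts were 8 and 21.

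The second comparison set the windows against the gaps of the same cluster, which only Hist1 has. Santa Cruz peaks numbered 12 in the windows (31.6 per Mb) and 11 in the gaps (5.92 per Mb), a ratio of 5.34 (95% interval 2.16 to 13.3, exact conditional binomial test, two-sided, adjusted p = 0.00024). The binomial test and its interval take peaks as independent, although some lie close together. Rotating the peaks within the span, which keeps their spacing, gave an adjusted p of 0.0464 (one-sided permutation test). The gaps are not alike, since the longest, of 1467 kb, holds the 33 vomeronasal receptor genes of the span, which had no peak of either list within 10 kb. Of the 15 other non-histone genes of the span, 8 had a Santa Cruz peak and 4 a Novus peak within 10 kb. For the 54 Hist1 genes these numbers were 26 and 4. The ratio therefore does not set histone genes apart from these neighbours. Linking the genes at 500 kb instead of 2 Mb leaves that gap out, and the ratio was then 1.77 (0.641 to 5.3, exact binomial test, adjusted p = 0.514). For Novus there were 2 peaks in the windows and 6 in the gaps, a ratio of 1.63 whose interval ran from 0.161 to 9.12 (exact binomial test, adjusted p = 0.631). The Santa Cruz density of the Hist1 windows also exceeded that of 1 Mb on each side of the cluster, 14.0 per Mb (9.3 to 20.2), although these intervals overlap.

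**Figure D3:**
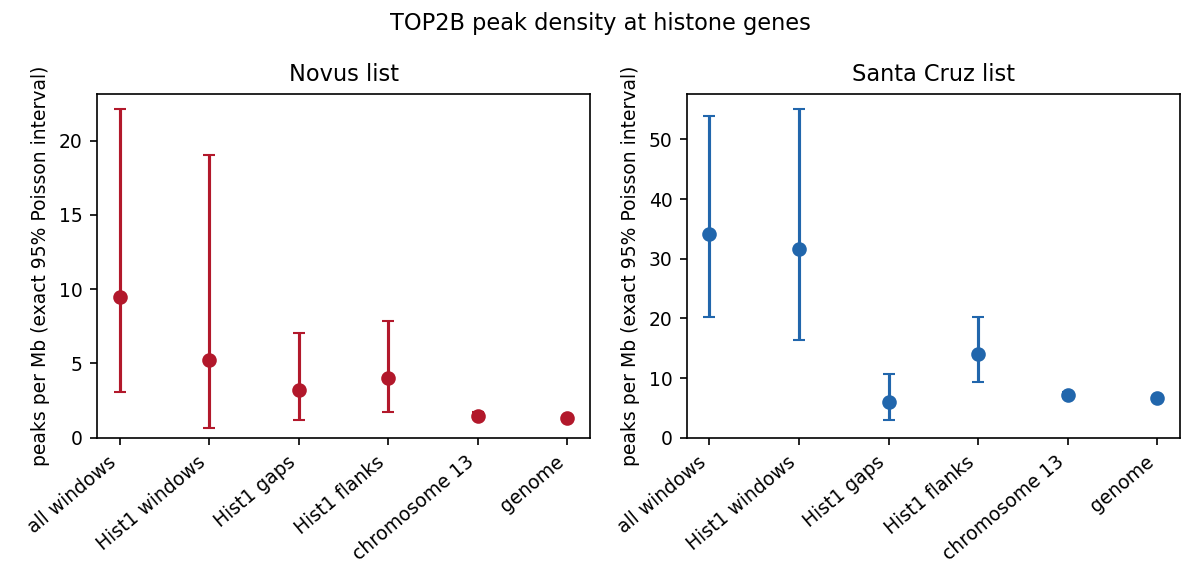
Peaks per Mb (y axis) in all histone gene windows, in the Hist1 windows, gaps and flanks of 1 Mb, over chromosome 13 and over the genome, for each list. Points are densities and bars exact 95% Poisson intervals. Santa Cruz windows, at 31.6 to 34.1 per Mb, lie above the gaps at 5.92, and the Novus intervals of windows and gaps overlap.

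A minority of the histone genes had a peak at the start. Within 1 kb of an annotated start, 9 members (13.4%) had a Santa Cruz peak, compared with 12.1% of all protein-coding genes, and 2 members (2.99%) had a Novus peak, compared with 5.11%. Within 10 kb of the gene the figures were 37 members (55.2%) against 42.1% for Santa Cruz and 10 members (14.9%) against 13.5% for Novus. At the starts these shares are close to the background, and neighbouring members share peaks. Histone genes are short, with a median of 530 bp against 15427 bp for all protein-coding genes. Of 4964 other genes of up to 4000 bp, a limit chosen after the values were seen, 4.75% had a Santa Cruz peak at the start and 18.8% within 10 kb, and 1.41% and 4.67% had a Novus peak. Of the members 64 were within this limit. The short genes were chosen by length only, and whether they are active in thymocytes was not measured, so they are not a matched background. Every member with a Novus peak within 10 kb had a Santa Cruz peak there as well, 27 members had Santa Cruz peaks only, and 30 had neither. These members with both rest on 5 Novus peaks shared between neighbours. The matching shares over all protein-coding genes were not counted, so this overlap cannot be read as a trait of histone genes.

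By class, Santa Cruz peaks lay within 1 kb of the start of 2 of 6 H1, 2 of 19 H2A, 2 of 18 H2B, 1 of 11 H3 and 2 of 13 H4 genes. Within 10 kb they were found for 4 H1, 10 H2A, 9 H2B, 7 H3 and 7 H4 genes. All 9 Hist2 genes and both Hist3 genes were within reach of a Santa Cruz peak, compared with 26 of 54 Hist1 genes. Neither Hist4h4 nor Hist1h2al had a peak of either list. The longest run without a Santa Cruz peak within 10 kb was 10 Hist1 genes, consecutive among the histone genes, from Hist1h3c to Hist1h2aa over 189.9 kb. The stretch itself was not free of peaks. Hist1h2ba and Hist1h2aa lie in a window of their own. The gap before it held a Santa Cruz peak 28.3 kb and a Novus peak 25.5 kb from Hist1h1a.

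Of the linker histone genes, Hist1h1d had a Santa Cruz peak centred 74 bp upstream of its start, at the sequence shown above. It holds 1 CCAAT and 3 TATAAA matches. Hist1h1b had a Santa Cruz peak inside the gene, 273 bp downstream of its start, at chr13:21872128-21872314. For Hist1h1c the peak lay 6.13 kb upstream, with a CTCF match at 1 mismatch near its centre. Hist1h1t, a linker histone gene of the testis, was within 10 kb of the peaks upstream of Hist1h4c, 5521 bp from its start for Novus and 5557 bp for Santa Cruz, a shared neighbourhood and not a site of its own.

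Among the core histone genes, the first of the sites called with both antibodies was upstream of the H4 gene Hist1h4j. The Novus peak was centred 664 bp and the Santa Cruz peak 766 bp upstream of its start, and they overlapped. An exact CTCF consensus match lay 19 bp from the Santa Cruz centre. The second common site was 2.88 kb (Novus) and 2.91 kb (Santa Cruz) upstream of the H4 gene Hist1h4c, with a CTCF match at 1 mismatch, and was also the peak counted for the H2B gene Hist1h2bc. This second site lay closer to the 3' end of Hfe (chr13:23793903-23802723, reverse strand), which is not a histone gene, than to Hist1h4c. The common sites were 2 of the 5 Novus peaks, compared with 27.9% of the whole Novus list that was common.

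The H2A gene Hist2h2ab was the other member with both lists at its start. Its Novus peak (chr3:96023054-96023248) was centred 688 bp and its Santa Cruz peak (chr3:96023366-96023552) 380 bp upstream, so that the centres were 308 bp apart and the peaks did not overlap. Both lay inside Gm15444, a non-coding transcript on the opposite strand. The neighbours Hist2h2ac and Hist2h2be, an H2A and an H2B gene, counted the same peaks within 10 kb, together with a second Novus peak 6.29 kb beyond Hist2h2be. The third Novus peak of the cluster fell in an exon of Hist2h2bb, 8.44 kb downstream of its start, in sequence of 64.1% GC with 17 CpG, and was within 10 kb of the H3 gene Hist2h3b as well.

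**Figure D4:**
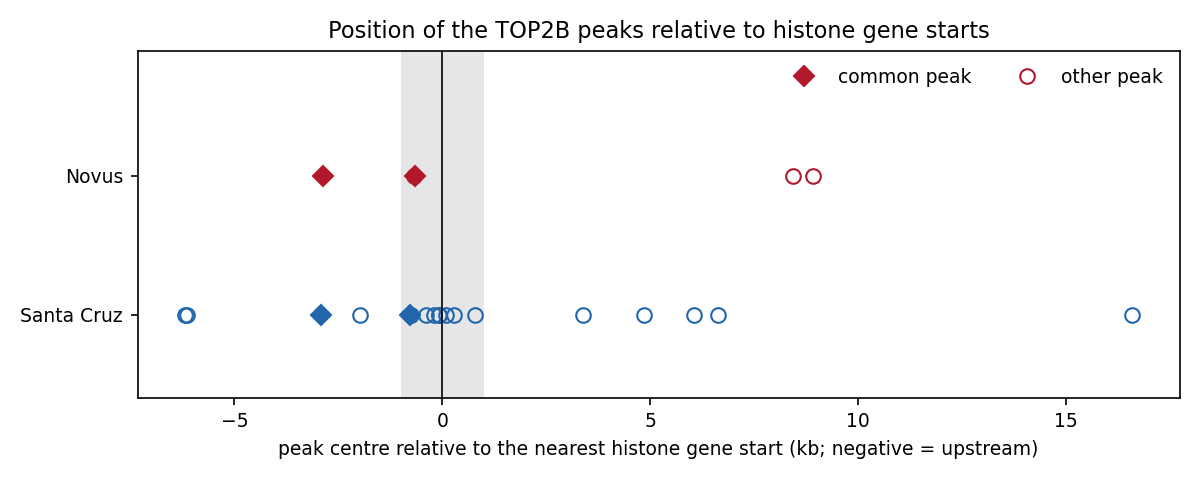
Distance in kb of each peak centre from the nearest histone gene start (x axis, negative is upstream), for the Novus and Santa Cruz lists. Filled diamonds are the peaks common to both lists, open circles the others, and grey marks 1 kb around the start. Of the Santa Cruz peaks 9 fall in the grey band and 9 outside it, and of the Novus peaks 2 and 3.

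The other peaks of the Hist2 cluster were all from the Santa Cruz list. Hist2h4, an H4 gene, had a peak centred 91 bp downstream of its start, at chr3:96067050-96067236, and Hist2h3c1, an H3 gene, had a peak 784 bp downstream of an inner annotated start. The promoter of Hist2h3c1 in the motif and uniqueness counts is that of its outermost start, chr3:96049477. The H2A genes Hist2h2aa2 and Hist2h2aa1 shared a peak 1.97 kb upstream of Hist2h2aa2. Hist2h2aa2 was also within 10 kb of the Novus peak beyond Hist2h2be. On chromosome 11, Hist3h2ba, an H2B gene, had Santa Cruz peaks 200 bp and 763 bp upstream of its start, and the same peaks were those within 10 kb of Hist3h2a.

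The stretches between head-to-head H2A and H2B genes were looked at on their own. Of 12 such pairs, separated by 167 to 305 bp, 1 had a Santa Cruz peak centred between the starts and 0 had a Novus peak. These stretches add up to 2.65 kb, which at the density of all windows would hold 0.0905 Santa Cruz and 0.0252 Novus peaks, so that a lack of peaks could not be seen over this length. That pair was Hist1h2ak and Hist1h2bn, whose starts were 79 bp and 137 bp from the peak centre. Its sequence, shown above, holds 3 CCAAT matches. The pair Hist1h2bl and Hist1h2ai and the neighbouring H3 gene Hist1h3h were instead within 10 kb of 2 Santa Cruz peaks, 4.85 kb and 6.05 kb downstream of the start of Hist1h2bl.

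The remaining Santa Cruz peaks, named by the closest gene after their positions were seen, lay away from the starts. Both peaks inside Hist1h2be, which is annotated over 37.4 kb, fell in an exon and an intron, and the intronic peak held the exact CTCF consensus 3 bp from its centre. The peak closest to Hist1h2ah was 6.64 kb downstream of its start, inside the non-coding RNA gene Gm11292, and that closest to Hist1h4h was 6.19 kb upstream. The latter and the Novus peak 6.29 kb from Hist2h2be were the farthest members of each list from a histone gene. The nearest peaks outside the limit of 10 kb were Santa Cruz peaks 10.7 kb from Hist3h2a, in an intron of Trim17, and 11.9 kb from Hist1h4c, at the start of Hfe. For Novus the nearest was 25.5 kb from Hist1h1a, in an intron of Trim38.

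The gaps of the Hist1 cluster held peaks as well. The start of Abt1, a gene for a basal transcription activator, had a common peak, 803 bp (Novus) and 738 bp (Santa Cruz) from it, 106.0 kb from the closest histone gene. A pair of further common sites lay about Pom121l2, 6.17 kb and 6.95 kb from its start by the Novus centres. The gaps thus held 3 common peaks (1.61 per Mb), compared with 2 in the Hist1 windows (5.26 per Mb), and with so few peaks no test was made.

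A CTCF core match within 250 bp was found for 5 of 18 Santa Cruz peaks (27.8%) and 2 of 5 Novus peaks, compared with 15.9% and 25.6% of the whole lists. Both Novus matches were at the common sites near Hist1h4j and Hist1h4c, which are also among the Santa Cruz matches, so they add no further site. Of the 9 Santa Cruz peaks within 1 kb of a start 1 had such a match, and of the 9 others 4 had. Members' promoters, from 250 bases before to 50 after the start, held CCAAT in 85.1% of cases and TATAAA in 56.7%, compared with 37.9% and 13.4% of all promoters. By class, CCAAT was in only 30.8% of H4 promoters, but in 90.9% of H3 and 100.0% of H1, H2A and H2B promoters. Promoters of head-to-head pairs overlap, so a match can count for both genes. The octamer ATGCAAAT, a known element of H2B promoters, was in 44.4% of H2B and 36.8% of H2A promoters and in 1.72% of all. Of the 9 members with a Santa Cruz peak at the start, 8 had CCAAT, 8 had TATAAA and 0 had the octamer, while the 58 others had CCAAT in 84.5%, TATAAA in 51.7% and the octamer in 25.9%. The octamer was in 0 of the H1, H3 and H4 promoters. The sets with and without a peak differ in their mix of classes, so these shares cannot be read as a trait of the peaks. The B box of tRNA genes, searched as GGTTCGANT, occurred at 15.8 per Mb in the Hist1 windows and 21.5 in the gaps, compared with 4.23 over chromosome 13, and was within 250 bp of 0 of the 23 peaks. As it was near only 0.27% of all Santa Cruz and 0.449% of all Novus peaks, this count says nothing particular about these peaks.

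Some histone genes share sequence with other copies, so the uniqueness of each was measured. The share of positions in a gene at which 75 bases, the length of the reads, occur in 1 place in the genome had a median of 66.4% over the members, from 0.0 to 100.0%. It was highest for H1 genes, with a median of 98.6%, and lowest for H3 genes, with 48.4%. Under 10% of positions were unique in 7 genes, namely Hist2h2aa1, Hist2h2aa2, Hist1h4m and, at 0, Hist1h2bq, Hist1h2ao, Hist1h2ap and Hist1h2br. All 23 peaks lay in sequence that was 100.0% unique by this measure. Most window sequence was unique as well, at 85.5% in Hist1, 90.5% in Hist2 and 99.1% in Hist3. The share over all peaks of the lists was not measured. The 9 members with a Santa Cruz peak at the start had a median of 87.9% unique positions in the gene, compared with 65.2% for the 58 without, and the promoter median was 100.0% in both. Whether reads that align in several places were kept is not given in the sources used here, and the part of repeated sequence in the missing peaks was not tested. Counted per unique base, the ratio of windows to gaps was 5.24 for Santa Cruz and 1.6 for Novus.

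**Figure D5:**
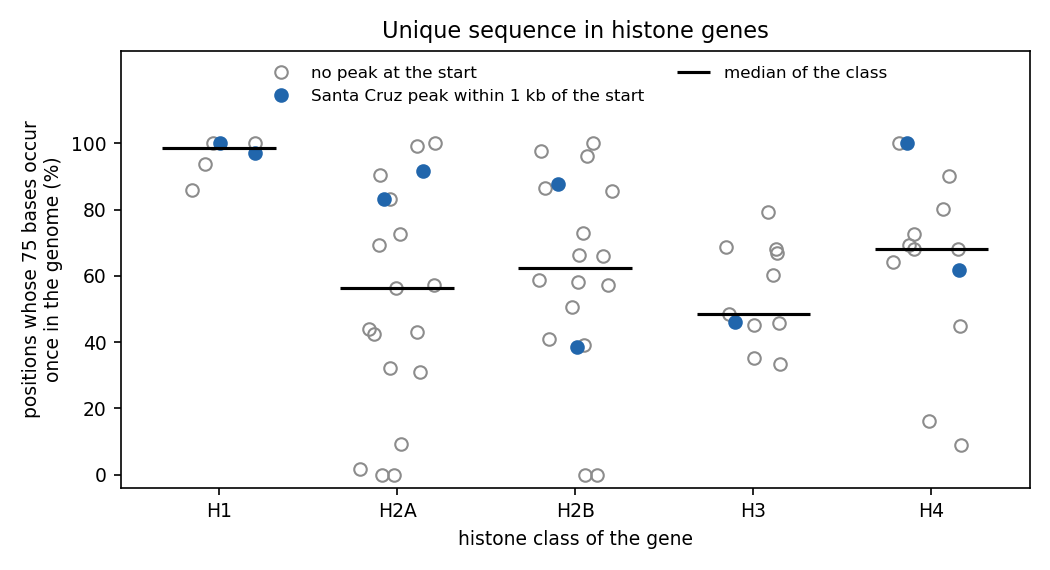
Percentage of positions in each histone gene whose 75 bases occur in 1 place in the genome (y axis), by histone class (x axis). Each circle is a gene, filled blue where a Santa Cruz peak lies within 1 kb of its start, and the bar is the class median, from 98.6% for H1 to 48.4% for H3.

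Genes that act on histones from outside the clusters were counted in the same way. Of 21 genes for histone transcription, 3' processing and chaperoning, 8 had a Santa Cruz peak at the start (38.1%, compared with 12.1% of all genes) and 2 a Novus peak (9.52%, compared with 5.11%). Within 10 kb the numbers were 13 (61.9%, compared with 42.1%) and 4 of 21 (compared with 13.5%), and no test was made of these counts. Casp8ap2, which encodes the histone locus body protein FLASH, had a common peak, centred 41 bp (Novus) and 154 bp (Santa Cruz) upstream of its start. Npat, the activator of histone gene transcription, had a Santa Cruz peak 233 bp upstream, and Lsm11 and Lsm10, of the U7 snRNP that cuts histone transcripts, had peaks 26 bp upstream and 213 bp downstream. The other Santa Cruz peaks were at E2f1, Cdk2, Chaf1b and Pou2f1, the gene for the octamer-binding factor, and the other Novus peak was at the histone chaperone gene Asf1a. Of 10 replacement histone genes, H3f3a had a Santa Cruz peak and H2afv a Novus peak at the start, and 3 and 2 had a peak of these lists within 10 kb. These counts are too small to be read against the same background shares.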

How the data were processed

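TOP2B was mapped by ChIPseq with ChIPmentation libraries. The authors trimmed single-end reads of 75 bases, mapped them (Bowtie 1.2.0, build mm9) and ran HOMER factor-style calling per library, with a minimum of 10-fold over IgG. The deposited unit is a position, the chromosome, start and end of each peak, 187 bp wide (Santa Cruz) or 195 bp wide (Novus), and the deposited score is 0 throughout. The lists carry no counts, so precision per peak is unknown.

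Peak centres were placed on GENCODE M1, whose build is also mm9. Windows were compared with circular shifts and with gaps of the same cluster (genes linked at up to 2 Mb), and p-values were adjusted over 2 lists by the Benjamini-Hochberg method. Motifs were searched on both strands. The members, gene lists and tests were chosen with earlier results of these data known. Named genes were those with a Novus or common peak within 10 kb, or a peak within 1 kb of a start, the 5 others with most Santa Cruz peaks, and cluster neighbours with a common peak at the start. The shift test was tested on simulated data. The tools were samtools 1.23.1, pandas 2.3.3, matplotlib 3.10.9, numba 0.67.0, scipy 1.17.1, numpy 2.4.6 and Python 3.11.15.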

Additional observations from a re-analysis of the deposited data

How the results depend on the processing

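The excess over shifted peaks held, in direction and in passing the threshold, with windows of 2 to 20 kb, overlap in place of centres, joined peaks, removal of the Hist1 cluster or of 5 testis and variant members, local shifts and moved windows, with folds of 2.51 to 13.3 for Novus and 2.98 to 6.4 for Santa Cruz. The exception was Novus in the Hist1 cluster alone, at 3.55-fold (adjusted p = 0.139, permutation test). Unlike the circular shifts, the local shifts do not keep the spacing of the peaks. The ratio of windows to gaps changed when genes were linked at 500 kb, to 0.687 for Novus, a reversed direction, and to 1.77 for Santa Cruz, no longer past the threshold. This setting removes the 1467 kb gap by construction. In the other settings run the Santa Cruz ratio was 4.51 to 6.3 and stayed past the threshold. When peaks were rotated within the span, the adjusted p was 0.0464 (one-sided permutation test). That test counts only an excess in the windows, unlike the two-sided binomial test of the other settings, and no two-sided rotation test was run. The Novus ratio was 1.16 to 3.22 and never past the threshold. Without the Hist1 cluster no gaps remain, and no ratio could be had.

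Members with a Novus peak at the start numbered 0 within 500 bp, 4 within 2.5 kb and 10 when any peak overlapping the gene or 10 kb around it was counted, compared with 2 in the report. For Santa Cruz they numbered 38 by that last measure, compared with 9. If each peak had to share 50% of its length, there was 1 common peak, and with both lists extended by 1 kb there were 3, the Hist2h2ab site being the one added. Of 132 counts of peaks at named genes under other window widths, 75 were equal and 57 moved. No paired analysis was possible because each antibody has 1 library, and no replicate could be left out.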
